A study of Homo sapiens with 90 samples.

Results

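The genes described are the ERBB receptors EGFR, ERBB2, ERBB3 and ERBB4 and 6 genes whose products restrain them, ERRFI1, LRIG1, LRIG3, CBL, CBLB and RNF41. Every probe annotated to 1 of these 10 genes was taken, which gave 20 of the 47292 probes of the array, and each probe is described apart. BxPC-3 cells, a human pancreatic adenocarcinoma line long held in culture, were profiled as total RNA on 90 Illumina HumanHT-12 v4 BeadChips. All cells had been cultured with 2% serum and then kept for 24 h with 0.2% serum before time 0. From time 0 the cetuximab arm received the antibody at 10 µg/ml, whereas the other arm is labelled only as a negative control, with no vehicle named. The 15 times were time 0, then 5, 10 and 30 min, then the hours 1, 2, 4 and 8, and then every day from 1 to 7, with 3 arrays per arm and time. Values are log2 signals, so that a difference of 1 is a doubling. The labels do not say whether the 3 arrays of a group came from separate cultures, and p-values therefore measure only the spread between these samples. All results come from a single cell line in bulk, in which fewer cells of a type and less RNA per cell cannot be told apart.

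ERBB receptors are transmembrane tyrosine kinases that signal as pairs through the RAS-MAPK and PI3K-AKT routes. EGFR binds EGF-like ligands and is the target of cetuximab, a monoclonal antibody against its extracellular domain. ERBB2 has no known soluble ligand and is the preferred partner of the others, ERBB3 binds neuregulins but has little kinase activity of its own, and ERBB4 binds neuregulins too. ERRFI1 (MIG6) binds the kinase domain and blocks it, LRIG1 is a transmembrane protein that lowers receptor levels, and LRIG3 is its relative. CBL and CBLB are ubiquitin ligases that tag activated receptors for degradation, and RNF41 (NRDP1) is a ubiquitin ligase that keeps ERBB3 low. In epithelial tumours the receptors and their inhibitors are linked by feedback, since several of the inhibitors are transcribed in response to receptor signalling.

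A probe was taken as background when its mean over the 90 arrays was under 4.24, the median of all probe means. This left 16 member probes of 9 genes for testing and put 4 probes at background. The only ERBB4 probe (ILMN_1653728) was among the latter, with a mean of 3.94 and a range of 3.37 to 4.32 over all arrays, so that ERBB4 was not measured above background in either arm at any group mean. The others were ILMN_1755535 of EGFR (mean 3.98), ILMN_1728761 of ERBB2 (4.03) and ILMN_1700345 of RNF41 (4.15). Those of EGFR and ERBB2 are annotated to the same transcript as a brighter probe of their gene, ILMN_1696521 (5.98) and ILMN_2352131 (7.45). Probes of the same annotated transcript could thus differ widely in signal. Just above the line were ILMN_1717902 of ERBB2 (4.28), ILMN_1728858 of EGFR (4.35) and ILMN_2397602 of ERBB3 (4.53).

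Array medians lay between 4.29 and 4.36, and the epithelial markers KRT7, KRT8, KRT18, KRT19, EPCAM and CDH1 were all above background, with means from 7.00 to 12.0. SMAD4 and CDKN2A, which are deleted in this line, were at background (3.78 and 4.13). Of the leukocyte markers CD68 (7.61) and CD14 (5.56) were above the line and PTPRC and CD3E were not, 0 of 2 endothelial markers were, and 4 of 5 fibroblast and 2 of 4 acinar or islet markers were, with means of 4.52 at most and COL3A1 at up to 6.87 on single arrays. At time 0 the arms already differed in 341 of the 17118 probes tested (limma, adjusted p under 0.05), among them 0 of the 16 member probes. At an unadjusted p under 0.05, 2 member probes differed there.

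The larger changes in these genes were those over time in culture, and most were shared by both arms. Those of CBLB and of ILMN_1737993 of ERBB3 were called with cetuximab only. From the first hours (the mean of 5 min to 8 h, the early window) to the days (the mean of days 1 to 7, the late window), EGFR, ERRFI1, CBL and RNF41 fell in the controls, whereas ERBB2, LRIG1 and LRIG3 rose. In the controls 10 of 16 member probes changed, 4 upwards and 6 downwards, where 66.0% of all probes tested changed (limma, Benjamini-Hochberg adjusted p under 0.05 over all probes tested, as for every call below). In the cetuximab arm 12 of 16 changed, 5 upwards and 7 downwards, against 66.7% of all probes. The median size of the change was 0.26 log2 units over the member probes in the controls and 0.20 over all probes, and 0.41 and 0.20 in the cetuximab arm. With 2 probes in 3 changing over culture, the share of members that changed was close to the background.

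**Figure D1:**
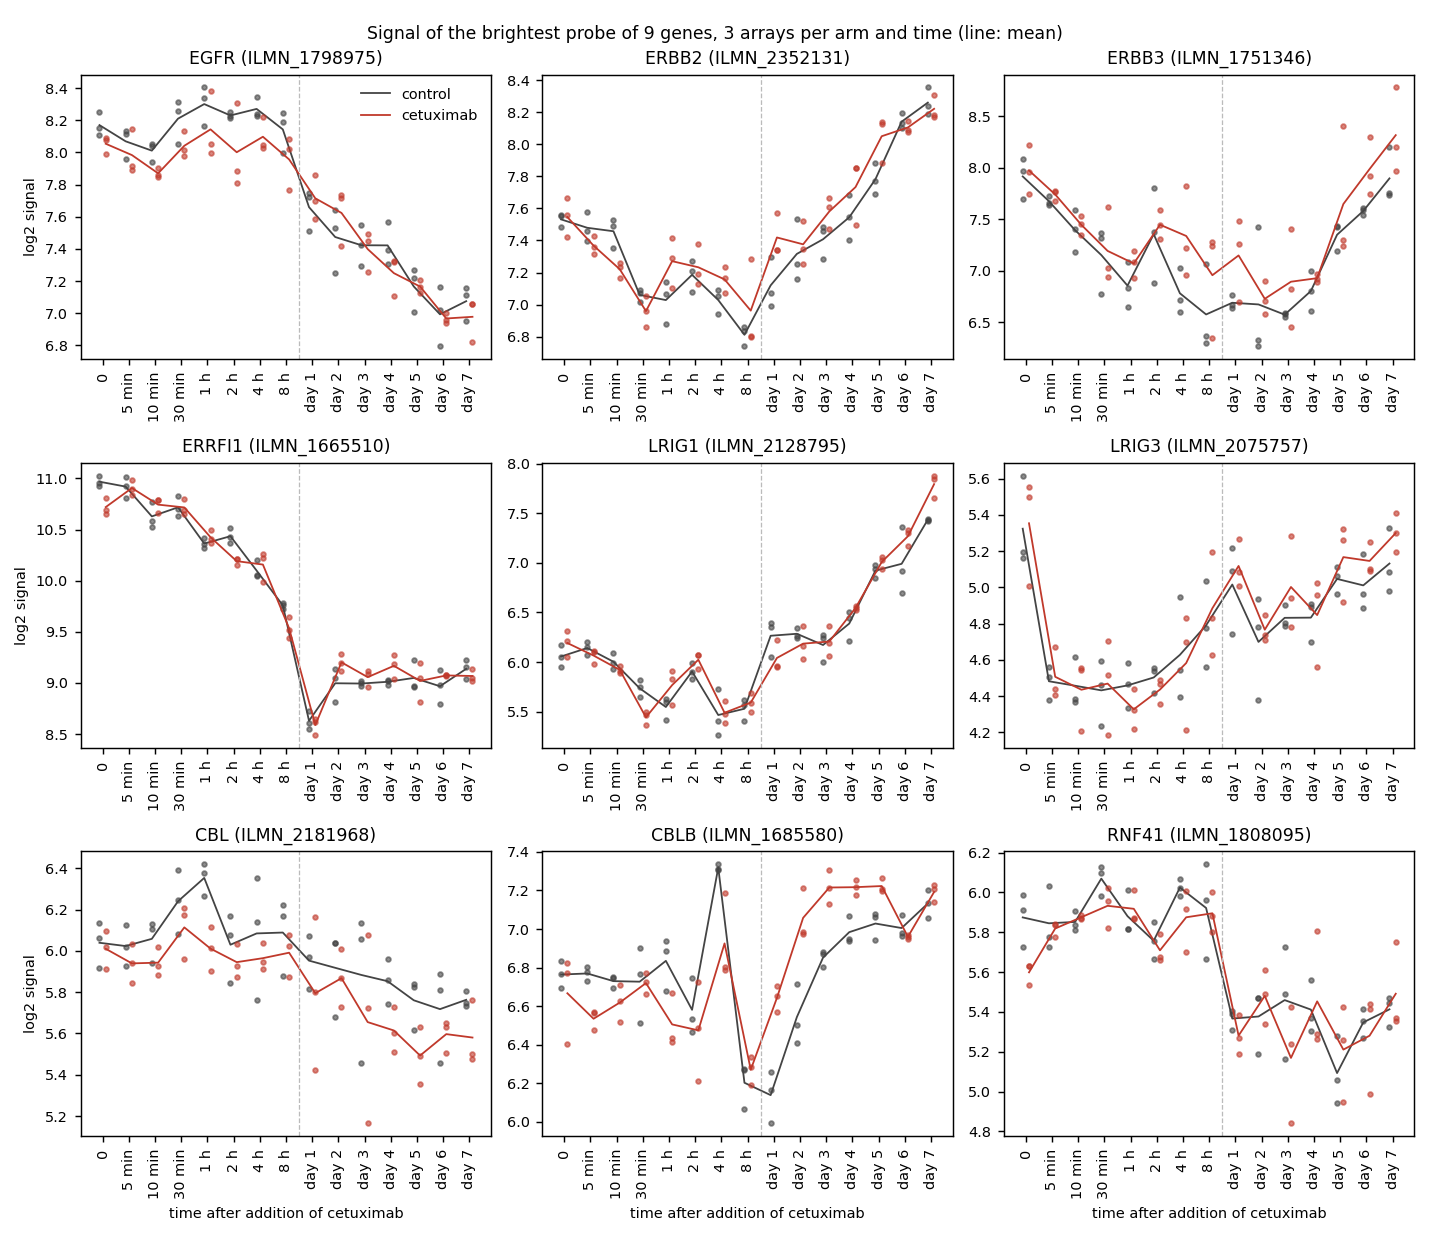
log2 signal (vertical axis) of the brightest probe of each of 9 genes at the 15 times (horizontal axis, in order and not to scale) in control (grey) and cetuximab (red) arrays, with a point per array and a line through the means of 3. ERRFI1 and RNF41 step down between 8 h and day 1 (dashed line) in both arms, the EGFR means are lower on every day than in the first hours, ERBB2, ERBB3 and LRIG1 climb until day 7, and CBLB shows a peak at 4 h and then higher red points from day 1 to day 5.

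**Figure D2:**
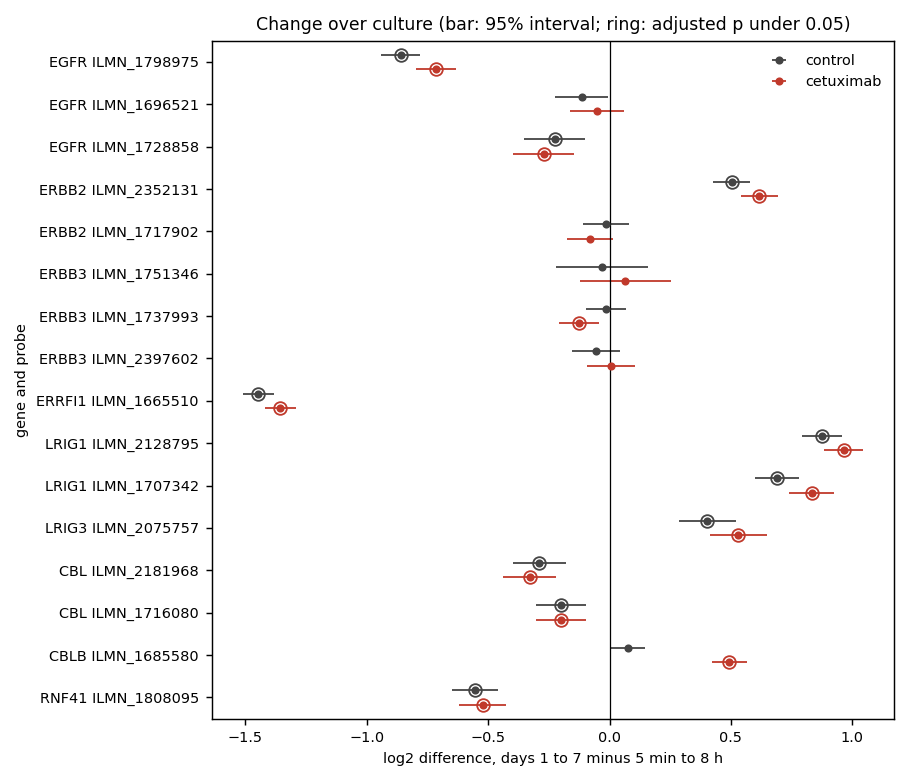
Change of the 16 member probes over culture, as the log2 difference of the mean of days 1 to 7 minus the mean of 5 min to 8 h (horizontal axis), in control (grey) and cetuximab (red) arrays. Bars are 95% intervals and rings mark adjusted p under 0.05. ERRFI1 lies farthest to the left, at -1.45 and -1.36, and the brighter LRIG1 probe farthest to the right, at 0.88 and 0.96.

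The sequences upstream of 4 members are shown because these genes carry the main patterns, EGFR and ERRFI1 the fall over culture, LRIG1 the rise and CBLB the difference between the arms. Each is the stretch of 250 bases before the most upstream annotated start in the RefSeq promoter table (GRCh38.p14), 5′ to 3′ in the direction of the gene, and 8 of the 10 members had an entry.
EGFR (chr7:55018767-55019016, forward strand): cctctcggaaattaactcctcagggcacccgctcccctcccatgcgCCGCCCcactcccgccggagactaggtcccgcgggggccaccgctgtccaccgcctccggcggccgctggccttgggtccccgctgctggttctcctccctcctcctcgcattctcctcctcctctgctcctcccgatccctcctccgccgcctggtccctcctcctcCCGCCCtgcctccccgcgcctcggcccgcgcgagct
ERRFI1 (chr1:8026310-8026559, reverse strand): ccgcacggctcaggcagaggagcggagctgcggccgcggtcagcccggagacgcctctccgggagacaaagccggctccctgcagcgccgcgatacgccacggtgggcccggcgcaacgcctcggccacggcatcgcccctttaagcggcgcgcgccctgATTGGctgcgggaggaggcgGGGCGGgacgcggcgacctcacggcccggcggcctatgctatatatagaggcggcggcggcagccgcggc
LRIG1 (chr3:66501122-66501371, reverse strand): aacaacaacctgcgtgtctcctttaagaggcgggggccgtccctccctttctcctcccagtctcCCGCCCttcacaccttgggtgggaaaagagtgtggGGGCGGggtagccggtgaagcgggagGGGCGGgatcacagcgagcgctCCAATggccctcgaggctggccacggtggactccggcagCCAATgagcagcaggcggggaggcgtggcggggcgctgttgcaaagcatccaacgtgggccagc
CBLB (chr3:105869402-105869651, reverse strand): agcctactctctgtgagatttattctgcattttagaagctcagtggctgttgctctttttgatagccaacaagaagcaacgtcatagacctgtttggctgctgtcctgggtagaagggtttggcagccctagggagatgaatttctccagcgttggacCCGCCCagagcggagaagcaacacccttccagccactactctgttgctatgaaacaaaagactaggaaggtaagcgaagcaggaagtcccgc
Capitals mark matches, on either strand, to 7 motifs that were searched: the GC box (GGGCGG), the CCAAT box (CCAAT), the AP-1 site (TGANTCA), the cAMP response element (TGACGTCA), the EGR site (GCGTGGGCG), the forkhead site of FOXO factors (GTAAACA) and, as a core promoter element, the TATA box (TATATAA). The EGR site ends in the first letters of the GC box, so that these can overlap, and each motif was searched alone. GC boxes were present in all 4, with 2 matches in EGFR, 1 in ERRFI1, 3 in LRIG1 and 1 in CBLB, as they were in 42.6% of all promoters of this length. CCAAT boxes were matched once in ERRFI1 and at 2 places in LRIG1, and in 32% of all promoters. No match to the letters of the other 5 motifs was in these windows. Each of them was present in 0.72% (EGR) to 6.57% (AP-1) of all promoters. Only TATATAA was searched as the TATA box. Other letters of this kind, such as the tatatata near the end of the ERRFI1 stretch, were not counted. The GC content was 73.6% for EGFR, 75.2% for ERRFI1, 66.8% for LRIG1 and 50% for CBLB. A match is a description of the letters only.

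EGFR signal fell over the week. On its brightest probe (ILMN_1798975, annotated to the full-length transcript NM_005228) the 21 control arrays of the early window lay between 7.94 and 8.40 with a median of 8.21, and the 21 of days 1 to 7 between 6.79 and 7.75 with a median of 7.29. The control windows did not overlap. The fall was by 0.86 ± 0.041 (SE; 1.82-fold; limma adjusted p = 5.44e-30), and in the cetuximab arm it was by 0.71 ± 0.041 (adjusted p = 1.32e-25). Part of it was a step between 8 h and day 1, where control arrays went from 8.00, 8.19 and 8.25 to 7.51, 7.72 and 7.75. This step passed the test in the controls (-0.48 ± 0.11, adjusted p = 0.00023) and gave -0.24 ± 0.11 in the cetuximab arm (adjusted p = 0.079). The steps between neighbouring times, and that from day 4 to day 7, were chosen after the values were seen. In the step from 8 h to day 1, 7 of 16 member probes were called in the controls (30.5% of all probes) and 8 in the cetuximab arm (32.9%). From day 1 to day 7 the slope was -0.11 per day in controls and -0.13 per day with cetuximab.

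Between the arms, EGFR was lower with cetuximab in the first hours. In the early window the cetuximab arrays lay between 7.76 and 8.38 with a median of 8.01, against 7.94 to 8.40 and 8.21 in the controls. The groups overlapped over most of their range, but the mean was lower at 7 of 7 times, by 0.16 ± 0.041 on average (limma adjusted p = 0.0049). It was 1 of 2 member probes called in that window, both lower, where 8.91% of all probes tested were called, and the median difference was -0.03 over the members and 0.00 over all probes. At time 0 the 3 cetuximab arrays (7.99, 8.08 and 8.09) already lay below the 3 control arrays (8.11, 8.15 and 8.25), a difference of -0.12 ± 0.11 that did not pass the test. Taken relative to time 0 the early difference was -0.05 (adjusted p = 0.93), and without replicate 2 or replicate 3 the adjusted p was 0.10 and 0.14. Over days 1 to 7 the difference was -0.02 (95% interval -0.10 to 0.07).

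The other EGFR probes, annotated to transcripts for shortened, secreted forms of the receptor, differed from the first. ILMN_1696521 (NM_201282) changed by -0.11 over culture in the controls (adjusted p = 0.062) and by 0.03 and 0.09 between the arms in the early and late windows, neither of which passed the test. The dim ILMN_1728858 (NM_201284) fell over culture by 0.23 in the controls and by 0.27 with cetuximab, and its arm differences were -0.00 and -0.05. Over the 30 group means the brightest probe had a Pearson correlation of 0.47 with ILMN_1696521 and of 0.82 with ILMN_1728858, points that share their arrays. The control fall of ILMN_1728858 lost its call without replicate 2 (adjusted p = 0.055).

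ERBB2 ran the other way to EGFR. On ILMN_2352131 the 3 control arrays read 7.49, 7.55 and 7.56 at time 0, 6.74, 6.83 and 6.86 at 8 h, and 8.19, 8.24 and 8.35 on day 7. The level thus dipped in the first hours and ended above its start, with no overlap between these times. The early window was lower than time 0 by 0.38 ± 0.076 (adjusted p = 0.00014), and days 1 to 7 were higher than the early window by 0.50 ± 0.038 in controls (1.42-fold, adjusted p = 1.79e-19) and by 0.62 ± 0.038 with cetuximab (1.53-fold, adjusted p = 7.64e-24). Slopes over the days were 0.19 per day in controls and 0.15 with cetuximab. The difference between these slopes was -0.04 ± 0.019 per day (adjusted p = 0.46).

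With cetuximab ERBB2 was slightly higher over the days. The 21 cetuximab arrays of days 1 to 7 lay between 7.25 and 8.31 with a median of 7.85, and the 21 controls between 6.99 and 8.35 with a median of 7.55. The mean difference was 0.13 ± 0.038 (limma adjusted p = 0.0136), with the mean higher on 5 of 7 days. It was most apart on day 1, where cetuximab arrays read 7.34, 7.34 and 7.57 and controls 6.99, 7.07 and 7.30. On days 6 and 7 the arms were at 8.11 and 8.14 and at 8.22 and 8.26, cetuximab first. The late call was lost relative to time 0 (adjusted p = 0.70), without replicate 1 (0.39) or 2 (0.050), and without day 1 (0.11), day 4 (0.052) or day 5 (0.086). The second ERBB2 probe above the line, ILMN_1717902, was near background and differed by -0.06 in the late window (not called); its correlation with the first over the 30 group means was -0.27.

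ERBB3 traced a U shape and was higher with cetuximab. On ILMN_1751346, annotated to the full-length transcript NM_001982, control arrays read 7.70, 7.97 and 8.08 at time 0, 6.55, 6.58 and 6.59 on day 3 and 7.73, 7.76 and 8.20 on day 7. The controls of the early window were lower than at time 0 by 0.80 ± 0.19 (1.74-fold, adjusted p = 0.0014). In all, 5 member probes changed between time 0 and the early window in the controls, all downwards, where 13.3% of all probes changed: those of ERBB2, ERBB3, ERRFI1, LRIG1 and LRIG3. The LRIG1 call (-0.30 ± 0.081, adjusted p = 0.0074) was lost without replicate 1 (-0.22, 0.25) or 2 (-0.30, 0.11). From day 4 to day 7 ERBB3 rose 2.13-fold in controls (1.09 ± 0.25, adjusted p = 0.00039; 0.070 without replicate 2) and 2.61-fold with cetuximab (1.39 ± 0.25, adjusted p = 8.07e-06). This step too was chosen after the values were seen. In it 5 of 16 member probes were called in the controls and 6 with cetuximab, against 26.8% and 26.6% of all probes.

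The ERBB3 mean was higher with cetuximab at 7 of 7 early times and on 7 of 7 days. On day 7 cetuximab arrays read 7.97, 8.20 and 8.78 and controls 7.73, 7.76 and 8.20; on day 6 they read 7.74, 7.92 and 8.30 against 7.54, 7.59 and 7.61, the only time at which all cetuximab arrays lay above all controls. Single arrays spread widely, with an SD within a group of up to 0.65. The difference over days 1 to 7 was 0.30 ± 0.094 (1.23-fold, limma adjusted p = 0.027) and in the early window 0.20 ± 0.094 (adjusted p = 0.20). Within replicate numbers 1, 2 and 3 the late difference was 0.35, 0.10 and 0.44. The late call was lost relative to time 0 (adjusted p = 0.76), without replicate 1 (0.066) or 3 (0.29), and without day 1 (0.083), day 3 (0.058), day 6 (0.070) or day 7 (0.071).

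The 2 ERBB3 probes for the short transcript NM_001005915, which encodes a secreted form, did not show this difference. Between the arms ILMN_1737993 gave -0.03 (95% interval -0.12 to 0.05) and ILMN_2397602 gave 0.01 (-0.09 to 0.11) over days 1 to 7. Over culture ILMN_1737993 fell by 0.13 ± 0.041 with cetuximab (adjusted p = 0.0050, and 0.063 without day 4) and changed by -0.02 in controls. Any pair of the 3 ERBB3 probes correlated at 0.55 to 0.56 over the 30 group means.

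In the late window 4 of 16 member probes were called between the arms, 3 higher and 1 lower, where 11.5% of all probes tested were called. The median difference was 0.03 over the members and 0.00 over all probes, and the median size 0.09 and 0.05. Called were ERBB2, ERBB3, CBL and CBLB, each on its brightest probe, so that the calls fell on 2 receptors and on 2 CBL family ligases. In the F test over the 14 times after time 0, which asks for any difference of any shape, 3 of 16 were called (ERBB2, LRIG1 and CBLB), against 8.76% of all probes.

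**Figure D3:**
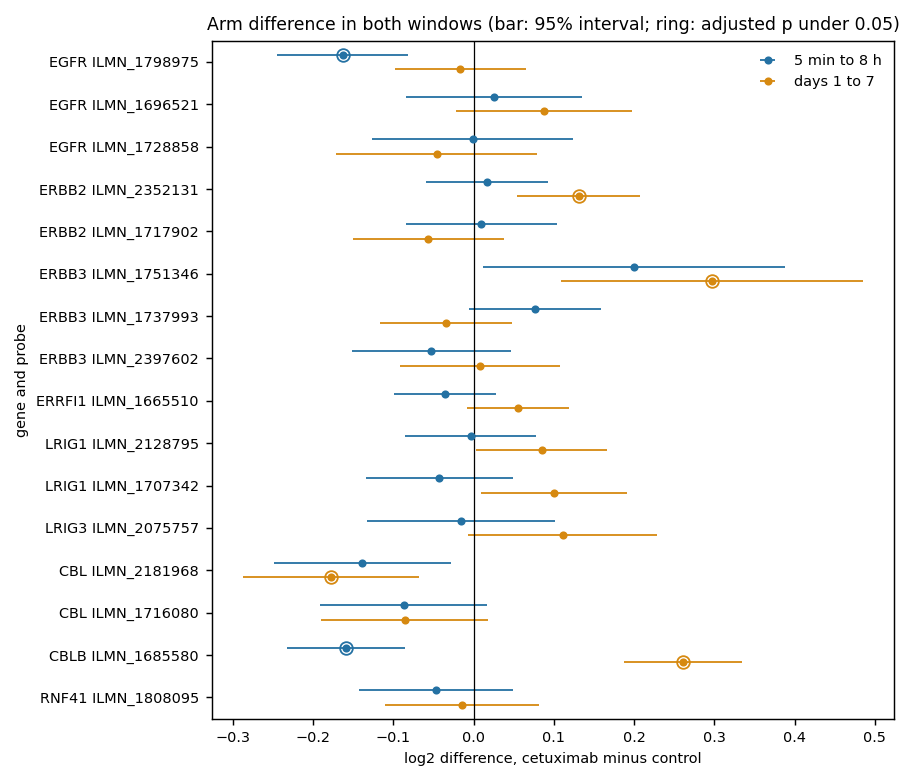
log2 difference between the arms, cetuximab minus control (horizontal axis), for the 16 member probes in the early window (5 min to 8 h, blue) and the late window (days 1 to 7, orange). Bars are 95% intervals and rings mark adjusted p under 0.05. CBLB lies left of 0 in blue (-0.16) and right of 0 in orange (0.26), and the full-length ERBB3 probe has the widest intervals.

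ERRFI1, the cytoplasmic inhibitor of the receptor kinases, had the largest change over culture among the members in both arms. Control arrays read 10.93, 10.95 and 11.02 at time 0, 9.72, 9.76 and 9.79 at 8 h and 8.55, 8.61 and 8.73 on day 1. These times did not overlap, and from day 2 on all control arrays lay between 8.79 and 9.22. The late window was lower than the early window by 1.45 ± 0.032 in controls (2.73-fold, adjusted p = 1.34e-49) and by 1.36 ± 0.032 with cetuximab (2.56-fold, adjusted p = 6.02e-48). The step from 8 h to day 1 alone was -1.13 ± 0.085 in controls (2.19-fold) and -0.95 ± 0.085 with cetuximab (1.93-fold). Within the first day, the early window was lower than time 0 by 0.55 ± 0.064 in controls (adjusted p = 2.8e-10), and the level fell by 0.34 ± 0.085 in controls and by 0.62 ± 0.085 with cetuximab between 4 h and 8 h.

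Between the arms ERRFI1 passed the test in neither window, with -0.04 (95% interval -0.10 to 0.03) in the early and 0.06 (-0.01 to 0.12) in the late window. At time 0 the cetuximab arrays (10.65, 10.70 and 10.81) all lay below the controls, a difference of -0.25 that was not called. Because of that offset the late difference relative to time 0 was 0.30 and passed the test (adjusted p = 0.045).

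LRIG1, the transmembrane inhibitor, had the largest rise, and its 2 probes moved together (Pearson correlation 0.98 over the 30 group means). On ILMN_2128795 control arrays read 5.95, 6.05 and 6.17 at time 0, 5.27, 5.40 and 5.73 at 4 h and 7.43, 7.44 and 7.44 on day 7. The late window exceeded the early window by 0.88 ± 0.041 in controls (1.84-fold, adjusted p = 1.58e-30) and by 0.96 ± 0.041 with cetuximab (1.95-fold), and on ILMN_1707342 by 0.69 and 0.83. Part of the climb came between 8 h and day 1. Means on ILMN_2128795 went from 5.53 to 6.27 in controls and from 5.59 to 6.04 with cetuximab. The larger part came after day 4. From day 4 to day 7 ILMN_2128795 rose by 1.05 ± 0.11 in controls (2.07-fold) and by 1.25 ± 0.11 with cetuximab (2.38-fold), and ILMN_1707342 by 0.99 and 1.11. Before the climb LRIG1 fell between 2 h and 4 h, by 0.44 ± 0.11 in controls (limma adjusted p = 0.0034) and by 0.53 ± 0.11 with cetuximab (adjusted p = 0.00054) on the brighter probe. The control call was lost with only the arrays compared (0.093) and without replicate 2 (0.21) or 3 (0.074), and the cetuximab call with only the arrays compared (0.061) and without replicate 2 (0.061).

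LRIG1 rose faster with cetuximab. On day 1 the cetuximab arrays (5.95, 5.96 and 6.22) overlapped the controls (6.05, 6.35 and 6.40) with a lower mean, and on day 7 they (7.66, 7.85 and 7.88) all lay above them (7.43, 7.44 and 7.44). The slope over days 1 to 7 was 0.29 per day with cetuximab and 0.20 in controls, a difference of 0.09 ± 0.020 per day (limma adjusted p = 0.0057). This was 1 of 2 member probes with a called difference in slope, where 1.14% of all probes were called. On ILMN_1707342 the difference was 0.07 ± 0.023 per day (adjusted p = 0.14). The call was lost with only the arrays of days 1 to 7 in the fit (adjusted p = 0.063), without replicate 1 (0.19) or 2 (0.47), and without day 1 (0.11) or day 7 (0.077). Over days 1 to 7 as a whole the difference was 0.09 ± 0.041 (adjusted p = 0.20), and 0.14 without day 1 (adjusted p = 0.033).

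LRIG3, the relative of LRIG1, was a dim probe (mean 4.80 over all arrays) and fell between time 0 and 5 min in both arms. Control arrays read 5.16, 5.19 and 5.61 at time 0 and 4.38, 4.50 and 4.56 at 5 min, and cetuximab arrays 5.01, 5.50 and 5.55 and then 4.41, 4.44 and 4.67. No array at 5 min reached the lowest at time 0. The difference was -0.84 ± 0.16 in controls (1.79-fold, limma adjusted p = 0.00019) and -0.85 ± 0.16 with cetuximab (1.80-fold, adjusted p = 5.73e-05; 0.050 without replicate 2). LRIG3 alone of the 16 member probes was called between these times, in either arm, 1 probe each, where 2.59% of all probes were called in the controls and 7.71% with cetuximab. Group means stayed between 4.33 and 4.51 until 2 h, and the late window exceeded the early window by 0.40 ± 0.059 in controls (adjusted p = 8.59e-09) and by 0.53 ± 0.059 with cetuximab (adjusted p = 1.49e-12). Between the arms the mean was higher with cetuximab on 7 of 7 days, by 0.11 ± 0.059 on average, which did not pass the test (adjusted p = 0.26).

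CBL, the ubiquitin ligase of activated EGFR, fell over culture and was lower with cetuximab. On ILMN_2181968 the 21 control arrays went from a median of 6.13 (5.76 to 6.42) in the early window to 5.83 (5.46 to 6.13) over the days, and the cetuximab arrays from 5.96 (5.84 to 6.21) to 5.63 (5.17 to 6.16). The fall was by 0.29 ± 0.055 in controls (adjusted p = 3.74e-06) and by 0.33 ± 0.055 with cetuximab (adjusted p = 2.44e-07). On ILMN_1716080 it was by 0.20 in both arms. The arm difference over days 1 to 7 was -0.18 ± 0.055 (1.13-fold, limma adjusted p = 0.022), with the mean lower at 7 of 7 early times and on 7 of 7 days. Within replicate numbers 1, 2 and 3 it was -0.24, -0.14 and -0.16.

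The early difference of CBL was -0.14 ± 0.055 (adjusted p = 0.11), and at 1 h all cetuximab arrays (5.90, 6.01 and 6.12) lay below all controls (6.26, 6.38 and 6.42). Between the windows the arm difference changed by -0.04 ± 0.078, so that no change between hours and days was detectable. The late call was lost with only the arrays of days 1 to 7 (adjusted p = 0.086), relative to time 0 (0.74), without replicate 1 (0.25) or 2 (0.12), and without day 3 (0.061), day 4 (0.066) or day 5 (0.068). The early difference gained a call with array weights (0.046) and with only the arrays of that window (0.035). ILMN_1716080, which correlated with the first probe at 0.83 over the 30 group means, differed by -0.09 ± 0.052 in both windows and was not called.

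CBLB, the close relative of CBL, was the member with the clearest difference between the arms, and it changed sign. With cetuximab it was lower in the first hours and higher over the days. In the early window the cetuximab arrays lay between 6.19 and 7.19 with a median of 6.57 and the controls between 6.07 and 7.34 with a median of 6.75, a difference of -0.16 ± 0.037 (limma adjusted p = 0.0022). Over days 1 to 7 they lay between 6.57 and 7.31 with a median of 7.18, against 5.99 to 7.20 and 6.95, a difference of 0.26 ± 0.037 (1.20-fold, adjusted p = 8.62e-08). The change between the windows, 0.42 ± 0.052, was tested itself (adjusted p = 5.85e-09), and CBLB was the 1 member probe of 16 that passed, where 5.99% of all probes did. The rise of CBLB over culture was 0.49 ± 0.037 with cetuximab (1.41-fold, adjusted p = 8.19e-20), and the control change was 0.07 ± 0.037 (adjusted p = 0.071). The lack of a call in the controls rested on single times. A control rise was called at 0.19 without day 1 (limma adjusted p = 1.66e-05), 0.17 without 4 h (6.99e-05), 0.12 without day 2 (0.0049) and 0.09 without 1 h (0.034). Within replicate numbers 1, 2 and 3 the late difference was 0.22, 0.30 and 0.26, and each was higher with cetuximab at 6 of 7 days.

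The early part of CBLB turned on 4 h. Control arrays read 6.47, 6.53 and 6.74 at 2 h, 7.31, 7.31 and 7.34 at 4 h and 6.07, 6.27 and 6.27 at 8 h, a sharp peak with no overlap. With cetuximab the arrays read 6.21, 6.48 and 6.73, then 6.79, 6.80 and 7.19, then 6.19, 6.28 and 6.34, a lower peak. The rise from 2 h to 4 h was 0.74 ± 0.098 in controls (1.67-fold, limma adjusted p = 3.7e-08) and 0.45 ± 0.098 with cetuximab (adjusted p = 0.0015; 0.49 without replicate 3 and 0.23 with only the arrays compared). In this step 4 of 16 member probes were called in controls and 2 with cetuximab, where 8.60% and 4.69% of all probes were called. From 4 h to 8 h CBLB fell by 1.12 ± 0.098 in controls (2.17-fold, adjusted p = 3.21e-15) and by 0.65 ± 0.098 with cetuximab (1.57-fold, adjusted p = 9.74e-08); 2 and 3 member probes were called, against 29.4% and 29.6% of all probes.

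At 4 h the arms differed by -0.39 ± 0.098 (adjusted p = 0.023), the only call among the 16 member probes at that time, where 1.41% of all probes were called. All 3 cetuximab arrays also lay below all controls at 5 min and at 1 h. The early difference was -0.12 without 4 h (adjusted p = 0.057), -0.13 without replicate 3 (0.073) and -0.06 relative to time 0 (0.89). The call at 4 h was lost without replicate 1 (0.29), 2 (0.50) or 4 (0.068), with no filter on dim probes (0.055) and with only the arrays of that time (0.50). It was also lost with a replicate block, with the number as a fixed term (0.075) or within each time (0.22).

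Over the first days CBLB was ahead of the controls with cetuximab. Control arrays stood at 5.99, 6.17 and 6.26 on day 1, 6.41, 6.50 and 6.72 on day 2 and 6.80, 6.87 and 6.88 on day 3. With cetuximab they stood at 6.57, 6.65 and 6.70, at 6.98, 6.98 and 7.21 and at 7.13, 7.21 and 7.31. The cetuximab mean of day 1 (6.64) was near the control mean of day 2 (6.54), and that of day 2 (7.06) near the control mean of day 5 (7.03). From 8 h to day 1 CBLB rose with cetuximab (0.37 ± 0.098, limma adjusted p = 0.0016), whereas the controls changed by -0.06 ± 0.098.

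The CBLB difference was 0.50 ± 0.098 on day 1 (limma adjusted p = 0.00068), 0.51 on day 2 (0.00040) and 0.36 on day 3 (0.026), each the only call among the member probes on its day, where 1.08%, 1.64% and 1.97% of all probes were called. On days 4 and 5 it was 0.23 and 0.19, not called, although all cetuximab arrays still lay above all controls. On days 6 and 7 it was -0.05 and 0.06, and the arms overlapped on both days. The slope over days 1 to 7 was 0.15 per day in controls and 0.05 with cetuximab (-0.00 without day 1, adjusted p = 0.92), a difference of -0.09 ± 0.018 per day (adjusted p = 0.00096; 0.056 without replicate 1 and 0.11 without replicate 2). The single-day calls were lost with only the arrays of the day compared (adjusted p = 0.36, 0.31 and 0.24). They were also lost on day 1 without replicate 1 (0.067) or 2 (0.29), on day 2 without replicate 2 (0.079) or 3 (0.084), and on day 3 without replicate 1 (0.35), 2 (0.24) or 3 (0.13). With no filter on dim probes the adjusted p on day 3 was 0.058.

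**Figure D4:**
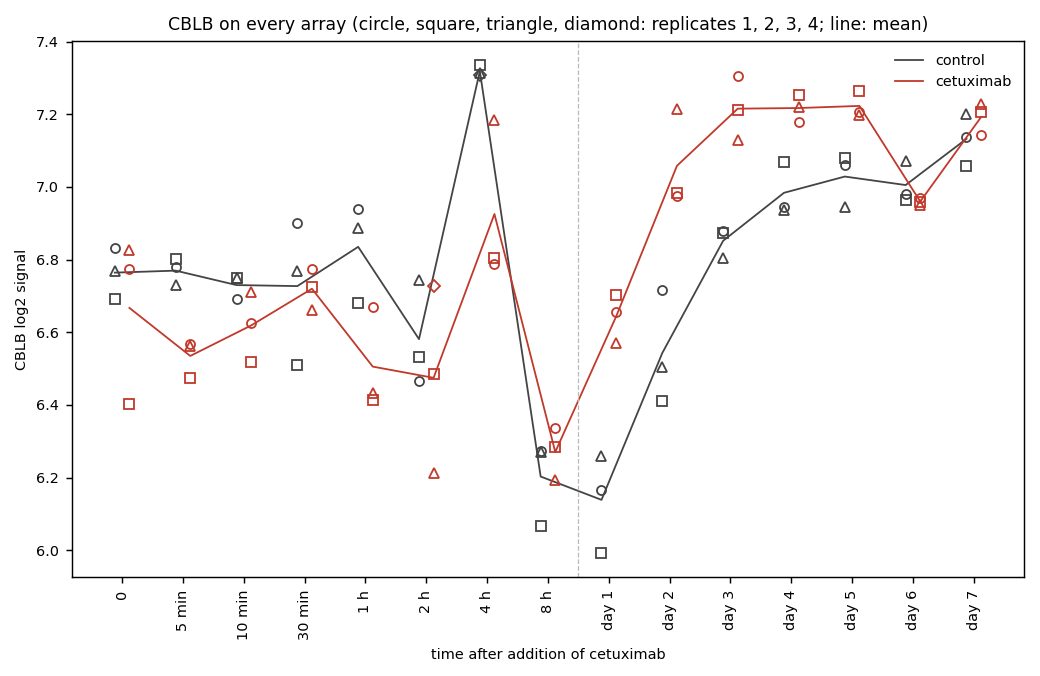
CBLB log2 signal (vertical axis) on every array at the 15 times (horizontal axis, in order and not to scale), control in grey and cetuximab in red, with a symbol for each replicate number and a line through the means. The control peak at 4 h (7.31 to 7.34) stands above all cetuximab arrays (6.79 to 7.19), and from day 1 to day 5 the red symbols stand above the grey ones.

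At the 11 times other than 4 h and days 1, 2 and 3, 0 of the 16 member probes were called by limma. Of all probes tested, 0% (10 min) to 2.31% (day 4) were called at these times. At each of them 1 to 5 member probes had an unadjusted p under 0.05. The map of differences by time shows the CBLB run together with smaller differences that did not pass at a single time, such as ERBB3 at 4 h (0.56 ± 0.25, adjusted p = 0.35) and LRIG1 on day 7 (0.36 ± 0.11, adjusted p = 0.095).

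**Figure D5:**
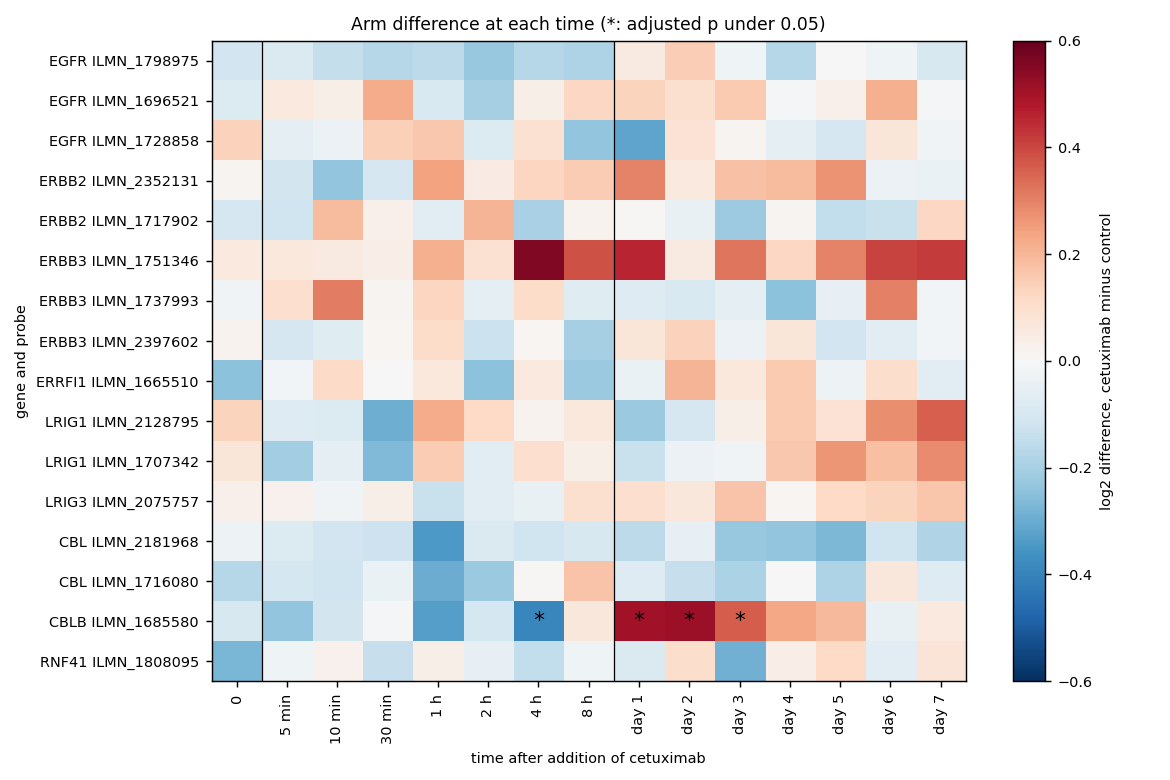
log2 difference between the arms, cetuximab minus control (colour, red higher and blue lower with cetuximab), for the 16 member probes (rows) at the 15 times (columns). Stars mark adjusted p under 0.05, and they fall on CBLB alone, at 4 h and on days 1, 2 and 3.

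RNF41, the ligase that acts on ERBB3, fell over culture. On ILMN_1808095 control arrays read 5.66, 5.96 and 6.14 at 8 h and 5.31, 5.39 and 5.40 on day 1, and cetuximab arrays 5.80, 5.88 and 6.00 and then 5.19, 5.27 and 5.39. The step was -0.56 ± 0.13 in controls (1.47-fold, adjusted p = 0.00034) and -0.61 ± 0.13 with cetuximab (1.53-fold, adjusted p = 6.91e-05). The late window was lower than the early window by 0.55 ± 0.048 and by 0.52 ± 0.048, and the slopes over the days were -0.01 and 0.01 per day. Between the arms the difference was -0.05 (95% interval -0.14 to 0.05) in the early and -0.01 (-0.11 to 0.08) in the late window. At time 0 all cetuximab arrays (5.53, 5.63 and 5.63) lay below the controls (5.72, 5.91 and 5.98), a difference of -0.28 that was not called.

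Over days 1 to 7 alone, 9 of 16 member probes had a slope in the controls, 6 upwards and 3 downwards (46.8% of all probes), and 11 with cetuximab, 8 upwards and 3 downwards (47.3%). The slope of the full-length ERBB3 probe was 0.22 per day in controls and 0.24 with cetuximab, beside the slopes of ERBB2 and LRIG1 given above. After its drop by day 1 ERRFI1 rose by 0.05 and 0.04 per day. Without day 1 the slopes were 0.02 (adjusted p = 0.30) and -0.02 (0.22), and without replicate 2 the adjusted p with cetuximab was 0.051.

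Over the 30 group means ERBB2 and LRIG1 had the highest correlation of any 2 members (0.94), EGFR correlated with CBL (0.89), RNF41 (0.85) and ERRFI1 (0.79), and EGFR ran against LRIG1 (-0.89) and ERBB2 (-0.84). These are descriptions over group means that share the course of culture. Of all other genes measured, those whose profiles were most like a member were RRP12, HMGA1 and TMEM158 for EGFR (0.98 to 0.97), SLC2A10, SLC40A1 and ILDR1 for ERBB2 (0.97), and PIK3IP1, TP53INP1 and JMY for ERBB3 (0.94 to 0.90). They were CCN2, RHOB and CCN1 for ERRFI1 (0.98 to 0.97), ILDR1, PLLP and TST for LRIG1 (0.96), SCYL3, GOLPH3L and CHD9 for LRIG3 (0.90 to 0.89) and CD59, AAGAB and R3HDM4 for RNF41 (0.94). SOCS4, IL1RL1 and PITRM1 were most like CBL (0.92), and ABHD12, CDH1 and PTTG1IP most like CBLB (0.84 to 0.83).

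The rest of the pathway was described by 4 lists. Of all probes tested, 11.5% were called between the arms over days 1 to 7, the share beside which the late counts stand. Of 7 ligands measured, 2 were lower and 0 higher with cetuximab over days 1 to 7, with a median of -0.08 against 0.00 for all probes: HBEGF, an EGFR and ERBB4 ligand (-0.41 ± 0.032, limma adjusted p = 3.48e-17), and NRG1, the neuregulin that binds ERBB3 (-0.19 ± 0.053, adjusted p = 0.0088). At time 0 HBEGF (-0.37, limma adjusted p = 0.0063) and EREG (-0.74, 0.00036) were already lower, where 1.99% of all probes were called. NRG1 differed there by -0.25, not called. In the early window 3 of 7 ligands were lower and 0 higher, where 8.91% of all probes were called. They were TGFA (-0.18), HBEGF (-0.19) and NRG1 (-0.19). Over culture in the controls 2 ligands rose and 4 fell, where 66.0% of all probes changed.

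Of 17 other ubiquitin ligases and endocytosis factors measured, 2 were higher and 2 lower over days 1 to 7 (median -0.01): CBLC, the third CBL family ligase (-0.13 ± 0.032, limma adjusted p = 0.0028), ITCH (-0.12 ± 0.037, 0.017), WWP1 (0.11 ± 0.037, 0.044) and the endocytic adaptor EPN1 (0.10 ± 0.029, 0.015). Over these days, by the probes called, CBL and CBLC were lower and CBLB higher with cetuximab. The CBL call was on its brighter probe only and was lost under several of the alternatives given above. Of 16 other negative regulators measured, 1 was higher, the receptor phosphatase PTPRK (0.10 ± 0.036, limma adjusted p = 0.044), and 3 lower (median -0.01): SPRY4, a feedback inhibitor of RAS-MAPK signalling (-0.27 ± 0.044, adjusted p = 1.87e-06), the kinase TNK2 (-0.14 ± 0.031, 0.00046) and SOCS4 (-0.14 ± 0.042, 0.019) were the lower ones. At time 0 PTPRK, SPRY4, TNK2 and SOCS4 differed by 0.10, -0.10, -0.07 and -0.11, none called, and SPRY1 was higher (1.12, limma adjusted p = 4.91e-10). Of 17 adaptors and effectors measured, 1 was higher and 2 lower (median -0.00). Higher was MAPK3, which is ERK1 (0.24 ± 0.034, limma adjusted p = 5.93e-08). Lower were MAP2K2 (-0.21 ± 0.070, 0.038) and MAP2K1 (-0.12 ± 0.028, 0.0014), the MEK kinases that activate MAPK3. At time 0 MAPK3, MAP2K2 and MAP2K1 differed by -0.09, -0.52 and 0.11, none called.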

How the data were processed

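Total RNA of BxPC-3 cells was measured on 90 Illumina HumanHT-12 v4 arrays, 3 per arm at each of 15 times. The values deposited by the authors are read here as log2 signals. The base is not stated and follows only from the lowest and highest values, 0.26 and 13.8. Limma appears, without a version, in the submitters' processing notes. How background was corrected and arrays were normalized is not given in the sources used here. Array medians were nearly alike, so the values were used as deposited. No detection p was used, and the number of arrays limits the precision.

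Probes with exactly 1 gene symbol in the platform annotation and a mean of at least 4.24 were tested, 17118 of 47292. One mean per group (30 groups) was fitted by limma 3.58.1 in R 4.3.3 (lmFit, eBayes, 60 residual degrees of freedom), and two-sided contrasts were adjusted by Benjamini-Hochberg over all probes tested within each contrast. Contrasts were the arm difference at each time, in the early and late windows, between the windows and in slope over days 1 to 7, an F test, and changes over time within an arm. The slope is per day. Correlations are Pearson's over 30 group means of the brightest probe of a gene. All probes of the members were named, of each pathway list up to 3 genes called in the late window with the largest differences (EPN1, PTPRK and TGFA were added after their values were seen), and the 3 genes most like each member. The members, lists and contrasts were chosen with earlier results of these data known.

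Alternatives changed 1 choice at a time: the filter, 1 probe per gene, all annotations, median centring, quantile normalization, array weights, another prior, the fit restricted to the arrays compared, 3 kinds of replicate block, omission of each replicate number or time, and windows relative to time 0. Replicate number 4 stands in place of 1 at 2 h with cetuximab and at 4 h in controls. The procedure was tested on simulated data. Promoter sequences are those of RefSeq.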

Additional observations from a re-analysis of the deposited data

Results flagged for a closer look

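The arm difference of CBLB (ILMN_1685580) changed between the first hours and the days by 0.42 ± 0.052 on the log2 scale (limma adjusted p = 5.85e-09), from -0.16 at 5 min to 8 h to 0.26 on days 1 to 7. It drew attention because the difference between cetuximab and control itself differed between 2 stretches of time by a direct test. The controls had peaked at 4 h above all cetuximab arrays, and from day 1 to day 5 all cetuximab arrays lay above all controls. Groups of 3 arrays were too small for a check of single arrays that stand apart.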

How the results depend on the processing

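Of the values of single probes under the alternatives, 3985 kept their direction and their side of the threshold, 127 lost a call, 22 gained one and 2 changed sign. With single times left out, the slope of the cetuximab arm ranged from -0.0219 per day (without day 1) to 0.0668 for ERRFI1 and from -0.00257 (without day 1) to 0.0738 for CBLB.

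Counts of called member probes moved as follows. With the windows taken relative to time 0, the count fell from 2 to 0 in the early and from 4 to 2 in the late window. With only the arrays of the groups compared it was 1 for the difference in slope (2 with all arrays), 0 for the 15 single times together (4), 1 and 0 for 4 h minus 2 h in controls and cetuximab (4 and 2), and 4 for day 1 minus 8 h with cetuximab (8). With no filter on dim probes it was 1 in the F test (3) and 2 for the single times (4). With a mean of at least 5, which drops LRIG3, it was 0 for 5 min minus time 0 in both arms (1). Array weights gave 4 for 8 h minus 4 h in controls (2), and 1 probe per gene gave 5 for day 1 minus 8 h with cetuximab.

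Leaving out a replicate number or a time gave 0 to 2 calls in the early window, 1 to 4 in the late window, 0 to 2 for the difference in slope, 1 to 3 in the F test, 6 to 11 for the slope with cetuximab, 0 to 3 for the single times, 0 to 1 for 5 min minus time 0 with cetuximab, 1 to 5 and 1 to 2 for 4 h minus 2 h in controls and cetuximab, 4 to 8 for day 1 minus 8 h with cetuximab and 3 to 5 for day 7 minus day 4 in controls. The late minus early difference kept 1 call throughout. The cause of these changes was not tested.

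The replicate numbers were not treated as pairs. Of 43 same-numbered pairs of arrays 26 had deviations correlated above 0.1 (median 0.13, against -0.06 for differently numbered arrays). The range was -0.03 to 0.60, against -0.48 to 0.31. On day 1 the correlation reached 0.45 for number 1 and 0.60 for number 3. In all, 69 of 86 arrays correlated best with their own number. The main fit does not model this likeness, and the labels do not say what the numbers stand for. With a replicate block the late count stayed 4, the early count was 2 or 3, and CBLB at 4 h lost its call in 2 of the 3 forms (adjusted p = 0.075 and 0.22). CBL in the early window (0.035) and CBLB over culture in controls (0.040) each gained one in 1 form. Day 7 minus day 4 with cetuximab had 7 calls in 2 forms (6 without a block), and the single times together 3 or 4 (4). What 21 arrays per arm and window can resolve differed by probe. By limma, ERBB2 was called at 0.13 in the late window (adjusted p = 0.014). CBL at -0.14 in the early window was not (0.11), and ERBB3 at 0.30 in the late window gave 0.027.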
